A study of Mus musculus with 1646 samples.

Results

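Matrix metalloproteinases (MMPs) and tissue inhibitors of metalloproteinases (TIMPs) were followed across single mesenchymal cells of the mouse colon. The set holds 10 of the 46517 genes in the count table and was chosen by gene symbol, with earlier results of these data known: the proteinases *Mmp2*, *Mmp3*, *Mmp10*, *Mmp11*, *Mmp14* and *Mmp19* and the inhibitors *Timp1*, *Timp2*, *Timp3* and *Timp4*. All 10 symbols were found in the table. *Mmp2* is also among the genes the study listed as fibroblast markers from these and other cells, so its direction between fibroblasts and mural cells is not independent evidence.

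The data are 1646 cells, each made into its own SmartSeq2 library, a method that copies and sequences the full-length polyadenylated RNA of a sorted cell. The cells came from male mice aged 10 to 20 weeks of 4 reporter lines, all on a C57Bl6/J background and without any other treatment named. PdgfrbGFP mice, which carry a BAC transgene with eGFP under *Pdgfrb* control, gave 761 cells on 4 plates. Acta2GFP mice, which carry GFP under the *Acta2* promoter, gave 567 cells on 2 plates, and per the methods elastase was added when their tissue was dissociated. PdgfraGFP mice, with a nuclear H2BGFP knocked into the *Pdgfra* locus, gave cells on 2 plates, and Cspg4dsRED mice, with DsRed under the *Cspg4* promoter, gave 91 cells on 1 plate. In every line the sort took CD31-negative cells by the reporter or by surface PDGFRα or PDGFRβ, so a line reports its promoter and gate and not a whole tissue. The labels do not name the mouse of a cell. Plate, line and any difference between mice therefore cannot be told apart, and p-values measure the spread between lines or plates.

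Cells carry the authors' cluster numbers, 1 to 8. Clusters 1, 2, 5, 6 and 7 are fibroblasts (1307 cells), and clusters 3, 4 and 8 are mural cells (20.6% of all cells), the contractile and supporting cells of vessel walls with their relatives. Cluster 3 (8.57% of cells) is the study's vascular smooth muscle cells (SMC), cluster 4 (8.63%) its pericytes, and cluster 8 (56 cells, 3.40%) its interstitial SMC. The marker genes went with these names. The summed level of 6 fibroblast markers was 4276 to 9937 counts per 500000 over the lines of clusters 1, 2, 5, 6 and 7, against 274.8 to 842 in cluster 3, 1059 to 2278 in cluster 4 and 1828 in cluster 8. The summed level of 6 mural markers was 4201 to 7025 in clusters 3 and 4, 1874 in cluster 8 and at most 356.4 in any fibroblast cluster. Cluster 2 (7.96% of cells) held the markers of fibroblasts at the crypt apex (*Tnc*, *Il1rl1* and 3 others, 3821 to 3934), and its 5 CD34+ fibroblast markers stood at 54.2 to 177.8. Clusters 1 (29.3% of cells), 5 (25.8%) and 7 (13.5%) were the CD34+ fibroblasts, with 1217 to 2970 for the same list. In cluster 6 (45 cells) the CD34+ list was low (18.5 to 108.6). Its apex list (389.8 to 578.6) lay under cluster 2, near cluster 1 (561.3 to 609.1) and above clusters 5 and 7 (16.3 to 147.7).

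MMPs are zinc-dependent proteinases, most of them secreted as inactive proenzymes, that cut collagens, proteoglycans and other components of the extracellular matrix. Gelatinase A (*Mmp2*) cleaves denatured collagen and basement membrane collagen, the stromelysins (*Mmp3* and *Mmp10*) cut a broad range of matrix proteins and can activate other proenzymes, *Mmp11* encodes a furin-activated stromelysin with weak activity on matrix, *Mmp14* encodes the membrane-bound MT1-MMP that activates pro-MMP2, and *Mmp19* encodes a further secreted MMP. TIMPs bind the active site of these enzymes in a tight complex. TIMP2 also bridges MT1-MMP and pro-MMP2 during activation, TIMP3 is held in the matrix and additionally inhibits ADAM proteinases, and TIMP1 is a poor inhibitor of MT1-MMP. In the gut, fibroblasts are a main source of MMPs and TIMPs.

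On GRCm38, *Mmp2* lies at chr8:92827291-92853420 (plus strand), *Mmp3* at chr9:7445822-7455975 (plus), *Mmp10* at chr9:7502352-7510240 (plus), *Mmp11* at chr10:75923222-75936496 (minus), *Mmp14* at chr14:54431612-54445364 (plus) and *Mmp19* at chr10:128790910-128800824 (plus). *Timp1* lies at chrX:20870166-20874735 (plus), *Timp2* at chr11:118301069-118355740 (minus), *Timp3* at chr10:86300372-86349506 (plus) and *Timp4* at chr6:115241892-115252205 (minus). Each TIMP but *Timp2* overlaps a synapsin gene on the opposite strand. The 8144 exonic bases of *Timp3* include 1733 that are also exonic in *Syn3*, *Timp4* shares 90 with *Syn2*, and *Timp1* lies inside *Syn1* and shares 0. *Mmp19* shares 1001 exonic bases with antisense genes (*Tmem198b* and *Gm47093*) and *Mmp11* shares some with *Chchd10*. SmartSeq2 libraries do not keep strand, so reads in those stretches cannot be told apart by strand.

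Levels below are counts per 500000 counts of a cell, averaged over the cells of a cluster within each line that has at least 10 of them, and the mean ± SD is over lines. Differences are log2 fold changes from edgeR's quasi-likelihood test on counts summed per line, with their standard errors and Benjamini-Hochberg adjusted p over all genes tested. The authors drew the clusters from the same counts, so these tests are not independent of the classes. How many of all genes have lines that do not overlap between groups was not counted, so such statements only describe the members. In a sum, fewer cells with a transcript and less transcript per cell cannot be told apart, so shares of single cells are given where they matter.

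**Figure D1:**
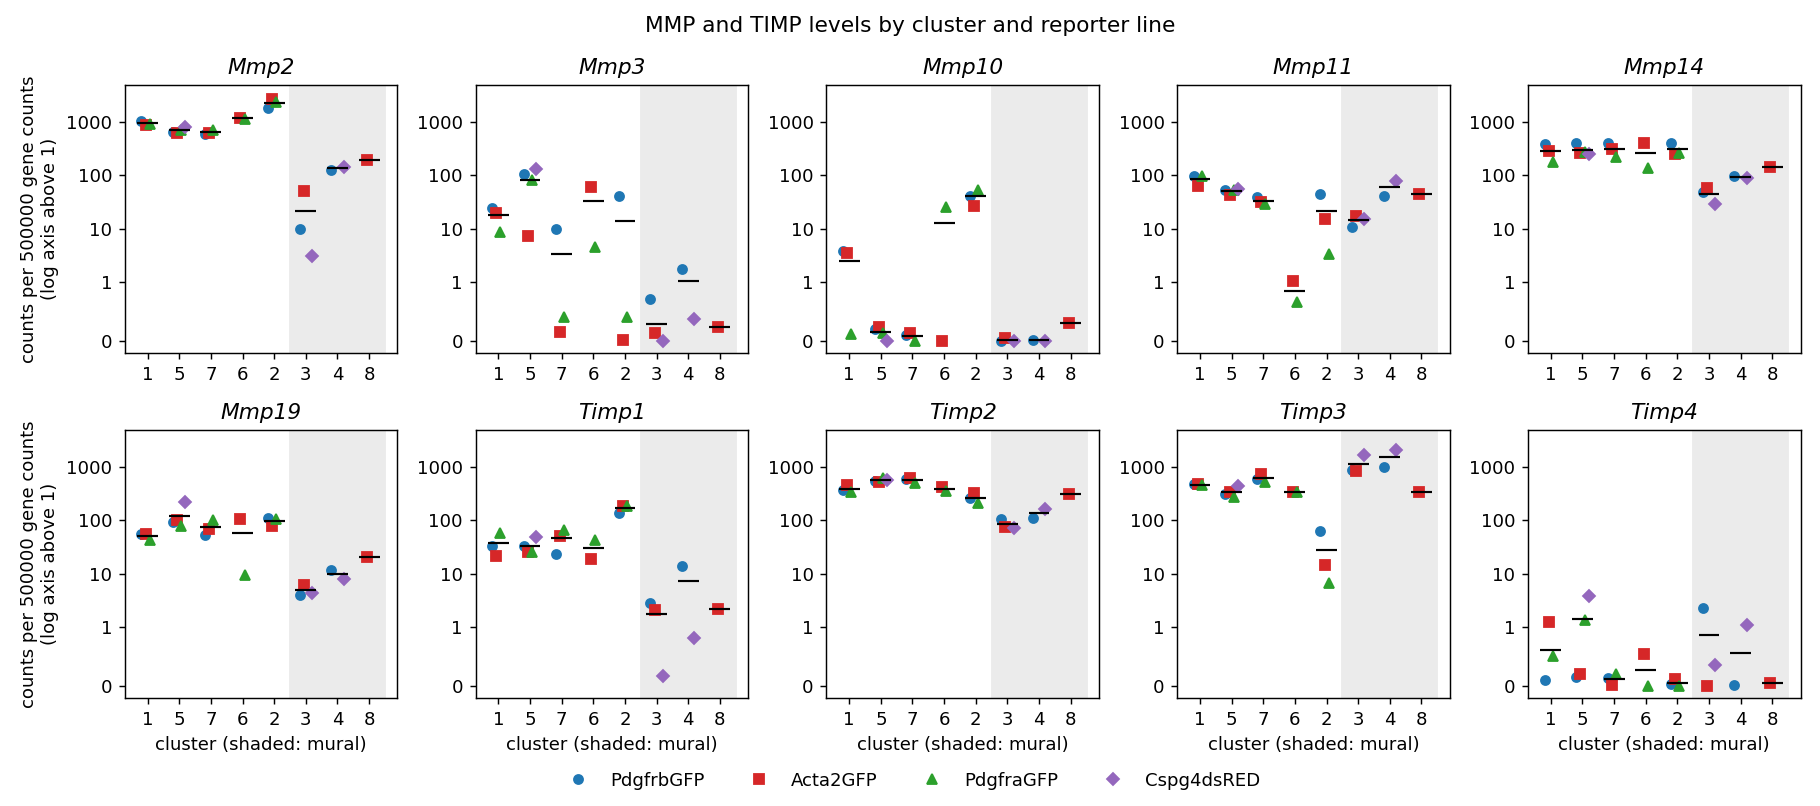
Level of each MMP and TIMP gene (counts per 500000, symmetric log axis that is linear below 1) in clusters 1 to 8; each point is 1 reporter line with at least 10 cells of the cluster. *Mmp2* and *Timp1* peak in cluster 2, *Timp3* is lowest there and highest in clusters 3 and 4, and *Timp4* stays under 4 in every line.

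*Mmp2* had the highest level per kilobase of exon of the 10 genes in fibroblasts. Over the fibroblast lines its mean was 288.6 counts per 500000 per kb, followed by *Timp2* (125.6), *Timp3* (58.2), *Timp1* (57.1) and *Mmp14* (50.4). In mural cells the order began with *Timp3* (138.7), followed by *Timp2* (39.3) and *Mmp2* (29.6). Levels of *Mmp3* (22.5), *Mmp11* (17.9) and *Mmp10* (3.4) closed the fibroblast order, apart from *Timp4*.

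The first comparison asked which of the genes separate fibroblasts from mural cells. *Mmp2* stood at 922 counts per 500000 in the fibroblasts of Acta2GFP, 1241 in PdgfraGFP, 874 in PdgfrbGFP and 853 in Cspg4dsRED, and at 139.8, 82.6 and 77.2 in the mural cells of Acta2GFP, PdgfrbGFP and Cspg4dsRED. Every fibroblast line was above every mural line, with a log2 difference of 3.51 ± 0.33 (edgeR, adjusted p = 0.00048). *Mmp14*, whose product activates pro-MMP2, was at 285.9, 224.4, 393.05 and 298.5 in the fibroblasts of the same lines against 110.2, 78.3 and 60.3 in mural cells (1.96 ± 0.40, adjusted p = 0.0191). *Mmp19* was at 68.4 to 146.0003 against 6.2 to 15.1 (3.44 ± 0.51, adjusted p = 0.00433). For both genes the lines of the 2 classes did not overlap.

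*Mmp3* was close to absent from mural cells. Its level was 10.4 in the fibroblasts of Acta2GFP, 26.5 in PdgfraGFP, 54.96 in PdgfrbGFP and 69.9 in Cspg4dsRED, and between 0.2 and 1.4 in the mural lines (5.98 ± 1.05, adjusted p = 0.00956). The fibroblast lines thus differed among themselves by a larger ratio than for any of the genes above, and still none reached down to the mural lines. *Mmp10* was at 0 to 16.01 in fibroblasts and at most 0.2 in mural cells and did not pass the test (edgeR, adjusted p = 0.12), although it passed with DESeq2 (adjusted p = 0.00451) and in edgeR with plates as samples (0.0102). *Mmp11* was at 40.99 to 68.4 in fibroblasts and 29.4 to 48.1 in mural cells, with overlapping lines (0.57 ± 0.41, adjusted p = 0.517).

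The inhibitors did not move together. *Timp2* was at 512, 397.99, 461.2 and 586 in the fibroblasts of Acta2GFP, PdgfraGFP, PdgfrbGFP and Cspg4dsRED and at 225.3, 114.7 and 118.9 in the mural cells of Acta2GFP, PdgfrbGFP and Cspg4dsRED (1.79 ± 0.31, adjusted p = 0.00948). *Timp1* was at 37.5 to 79.1 against 0.5 to 8.9 (3.76 ± 0.92, adjusted p = 0.04). Neither gene overlapped between the classes. *Timp3* had the opposite direction, with 469.03, 289.4, 403.4 and 734 in fibroblasts and 554, 929 and 1907 in mural cells of Acta2GFP, PdgfrbGFP and Cspg4dsRED, but the fibroblasts of Cspg4dsRED lay above the mural cells of Acta2GFP and the test did not pass (−1.11 ± 0.43, adjusted p = 0.18). *Timp4*, the inhibitor best known from heart and brain, stayed at or under 3.8 in every line of every cluster.

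In all, 6 of the 10 genes rose in fibroblasts and 0 fell, where 3.21% of the 19173 genes tested rose and 3.36% fell, and the median difference was 2.70 against −0.03 over all genes tested. The other proteinases and inhibitors kept to that pattern in part. Of 17 other MMP genes, 9 were expressed enough to be tested and 1 rose, *Mmp16* (4.25 ± 1.01, adjusted p = 0.0357), another membrane-type MMP. Of 25 activators, inhibitors and binding partners 23 were tested, 7 rose and 0 fell, among them *Adam12* (6.16), the proprotein convertases *Pcsk6* (4.35) and *Pcsk5* (3.65), which belong to the enzyme family that activates some pro-MMPs, and *Thbs2* (4.00), whose product binds MMP2.

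Marker lists of other cells also separated the classes. Endothelial markers (6 genes) summed to 60.04 to 105.7 over the fibroblast lines and 17.1 to 22.3 over the mural lines, interstitial cell of Cajal markers (2 genes) to 13.01 to 37.7 and 114.6 to 407.5, and the part of either in the differences was not tested. The classes were unevenly spread over the plates. Of the 4 PdgfrbGFP plates, 2 held 10 and 8 mural cells among many fibroblasts, and the other 2 held 54 and 26 fibroblasts beside 82 and 90 mural cells. Within the 6 plates that hold at least 10 cells of both classes, *Mmp2*, *Mmp3*, *Mmp14*, *Mmp19*, *Timp1* and *Timp2* were higher in fibroblasts in 6 of 6 plates and *Timp3* was lower in 6 of 6. How many of all genes keep 1 direction on these plates was not counted, so this is a description of the members. With plates as samples *Timp3* also passed the test (adjusted p = 0.00681). Some calls were lost with fewer sums, while over all alternatives the differences stayed at 5.57 to 7.38 for *Mmp3*, 1.62 to 2.37 for *Mmp14*, 2.73 to 3.66 for *Mmp19*, 1.48 to 2.06 for *Timp2* and 3.37 to 5.23 for *Timp1*. Without Cspg4dsRED the adjusted p was 0.0537 for *Mmp3*, 0.0604 for *Timp2* and 0.069 for *Mmp14*, and without PdgfrbGFP it was 0.0517 for *Mmp19*, 0.0927 for *Timp2*, 0.141 for *Mmp14* and 0.0644 for *Timp1*. *Timp1* was also lost without Acta2GFP (0.184), without PdgfraGFP (0.0822) and with the line as a replicate block (0.088).

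Within the fibroblasts, cluster 2 at the crypt apex stood apart by high *Mmp2* and *Timp1* and by the near loss of *Timp3*. *Mmp2* was at 2681 counts per 500000 in Acta2GFP, 2411 in PdgfraGFP and 1871 in PdgfrbGFP, a mean of 2321 ± 412.5 (SD, n = 3 lines), and every cell of the cluster had counts of it. Clusters 1, 5 and 7 had means of 949 ± 82.3 (n = 3), 703 ± 82.9 (n = 4) and 648 ± 52.8 (n = 3), and the 2 lines of cluster 6 had 1208 and 1161. No line of another cluster reached the lowest line of cluster 2. Against clusters 1, 5 and 7 together the log2 difference was 1.66 ± 0.18 (edgeR, adjusted p = 0.000985), and it passed in all 9 alternatives.

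*Timp1* followed the same order at its top. It was at 184.9, 188.7 and 135.1 in cluster 2 of Acta2GFP, PdgfraGFP and PdgfrbGFP, while the lines of clusters 1, 5, 6 and 7 lay between 18.6 and 65.3 and overlapped one another (2.23 ± 0.28, adjusted p = 0.00189). Counts of *Timp1* were found in 91.6% of cluster 2 cells and 59.5% had a level of 100 or more. *Mmp10* was at 26.8, 53.3 and 41.5 in cluster 2, against at most 3.8 in clusters 1, 5 and 7 and 0 and 25.2 in cluster 6 of Acta2GFP and PdgfraGFP (5.27 ± 1.22, adjusted p = 0.0308). Cluster 2 held 71.1% of all *Mmp10* counts of the 1646 cells.

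*Timp3* ran the other way. It was at 14.6, 6.6 and 63.2 in cluster 2 of Acta2GFP, PdgfraGFP and PdgfrbGFP, while every line of clusters 1, 5, 6 and 7 lay between 277.3 and 753 (−4.07 ± 0.82, adjusted p = 0.0171). Counts were found in 76.3% of cluster 2 cells, or 39.7% after each cell was thinned to 50000 counts (98.8% and 94.2% in cluster 1), and 5.3% had a level of 100 or more. The highest line of cluster 2 stayed far under the lowest of any other cluster, mural clusters included. The 2 TIMPs thus moved in opposite directions in the same cluster, and *Timp2* (325.7, 208.5 and 266.1 in cluster 2) did not pass (−0.70 ± 0.30, adjusted p = 0.222).

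The remaining members did not separate cluster 2. *Mmp14* was at 255.2, 261.1 and 405.03, overlapping the 178.99 to 399.7 of clusters 1, 5 and 7, *Mmp19* was at 79.2, 106.3 and 110.03, and *Mmp11* at 15, 3.4 and 45.5. *Mmp11* was highest in cluster 1 (62.3, 96.1 and 96.1) and not called here (−1.38 ± 0.70, adjusted p = 0.325). Of the 10 members 3 rose and 1 fell, where 3.5% of the 15893 genes tested rose and 3.76% fell, and their median difference was −0.10 against 0.00 over all genes.

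Partner genes also differed in cluster 2, among them genes of the plasminogen activator system, which generates the plasmin that can activate several pro-MMPs. Of 23 tested activators and partners 3 rose and 6 fell. *Plau*, encoding urokinase, rose by 5.86 ± 0.22 (edgeR, adjusted p = 4e-06), while the protease inhibitors *Serpine2* (−4.00) and *Tfpi2* (−6.06) fell. Among the other MMP genes, 8 of 17 were tested. The collagenase gene *Mmp13* rose by 9.33 ± 0.81 (adjusted p = 0.000338), and *Mmp16* (−4.65) and *Mmp23* (−1.65) fell.

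Genes known to respond to tissue dissociation moved with this cluster. The mean log2 level of 16 such genes (*Fos*, *Jun*, *Egr1* and others) was 7.33 to 8.28 over the lines of cluster 2 against 3.81 to 6.72 in clusters 1, 5 and 7. Marker lists of other cells also differed in level. Interstitial cell of Cajal markers (2 genes) summed to 98.1 to 219.6 in cluster 2 and at most 43.9 in clusters 1, 5 and 7, interstitial SMC markers (2 genes) to 253.8 to 355.7 and at most 134.3, and the 6 mural markers to 21.7 to 43.2 and 60.4 to 141.4. The part of these lists in the differences was not tested. Without Acta2GFP the adjusted p rose to 0.0579 for *Timp1* and 0.135 for *Timp3*. *Mmp10* was lost without Acta2GFP (0.0821), PdgfraGFP (0.154) or PdgfrbGFP (0.124) and with the line as a replicate block (0.0975).

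*Mmp3* and *Mmp10* are neighbours on chromosome 9, 46377 bases apart, and code for closely related stromelysins. Both hold the letters of an AP-1 motif and of TATAAA before their RefSeq start, so their sequences are shown. The windows are the 250 bases before the RefSeq start (GRCm38.p6, plus strand, chr9:7445572-7445821 for *Mmp3* and chr9:7502092-7502341 for *Mmp10*). Capitals mark TGANTCA, the AP-1 motif, and then TATAAA.

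Mmp3: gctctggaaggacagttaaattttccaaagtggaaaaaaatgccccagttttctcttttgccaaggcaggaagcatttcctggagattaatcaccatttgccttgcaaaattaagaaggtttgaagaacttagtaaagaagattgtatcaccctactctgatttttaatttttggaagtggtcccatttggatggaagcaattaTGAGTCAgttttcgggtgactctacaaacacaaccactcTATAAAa
Mmp10: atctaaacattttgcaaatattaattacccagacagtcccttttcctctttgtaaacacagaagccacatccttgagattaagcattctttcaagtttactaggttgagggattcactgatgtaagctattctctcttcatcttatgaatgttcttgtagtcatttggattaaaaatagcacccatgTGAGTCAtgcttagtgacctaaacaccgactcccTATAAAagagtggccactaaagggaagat

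The first base of TGANTCA lies 46 bases before the start in *Mmp3* and 63 in *Mmp10*, and that of TATAAA 7 and 29. Windows were found for 8 of the 10 members and the other 6 (*Mmp11*, *Mmp14*, *Timp1*, *Timp2*, *Timp3* and *Timp4*) held neither motif. Of all 32851 windows of this length, 6.75% held TGANTCA and 12.4% held TATAAA on either strand, and the motifs do not overlap one another. GGGCGG, the SP1 motif, which 32.7% of all windows hold, was found in *Mmp11*, *Mmp14*, *Timp1*, *Timp2* and *Timp3* but in neither stromelysin gene. A match only says that these letters are present.

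Few cells were high in either stromelysin gene. Of the 1307 fibroblasts, 66 had an *Mmp3* level of 100 or more and 17 an *Mmp10* level of 100 or more, and 0 had both. With so few high cells, 0.858 cells would be high in both if the genes were unrelated over all fibroblasts and 0.237 if they were unrelated within each cluster, so the 0 does not show separate use by single cells. For *Mmp3* the cells were mostly in cluster 5 (46 cells, 10.8% of the cluster, 95% Clopper-Pearson interval 8.03 to 14.2), with 15 in cluster 1 (3.11%, 1.75 to 5.07), 2 of 45 in cluster 6, 2 in cluster 7 and 1 in cluster 2. For *Mmp10* they were mostly in cluster 2 (13 cells, 9.92%, 5.39 to 16.4), with 3 in cluster 1 and 1 in cluster 6. In mural cells 0 cells reached that level for either gene, which allows a share of up to 1.08% (upper bound of the same interval) if cells are taken as independent.

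**Figure D2:**
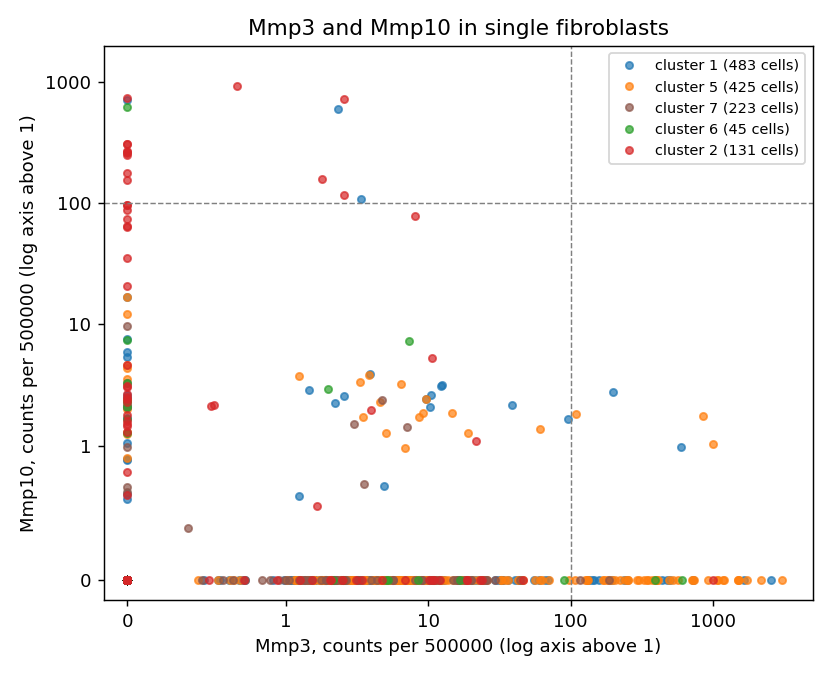
Level of *Mmp10* against *Mmp3* (counts per 500000) in single fibroblasts, 1 point per cell, with the level of 100 marked on both axes. The 66 cells high in *Mmp3* and the 17 cells high in *Mmp10* are mostly of cluster 5 and of cluster 2, respectively, and 0 cells are high in both, where under 1 would be if the genes were unrelated.

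*Mmp3* signal was concentrated in few cells. The 10% of cells in cluster 5 with the highest level carried 93.2% of its *Mmp3* level, and 49.2% of the cells had any count. *Mmp2*, by contrast, was found in every cell of clusters 2 and 7. Reads of 50 bases can tell the stromelysins apart over most of their length, since 8.37% of the 1673 such windows of *Mmp10* also occur in other genes, all of them in *Mmp3*.

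Across clusters, *Mmp3* was highest in cluster 5, at 7.3 in Acta2GFP, 82.1 in PdgfraGFP, 105.02 in PdgfrbGFP and 134.4 in Cspg4dsRED (82.2 ± 54.3, n = 4). It was at 19.99, 8.6 and 24.9 in cluster 1, at 60.9 and 4.5 in cluster 6 of Acta2GFP and PdgfraGFP, and at 0.2, 0.4 and 9.7 in cluster 7. The Acta2GFP line of cluster 5 lay below every line of cluster 1 and the other 3 lines above them, so the clusters overlap. Cluster 2 had 0, 0.4 and 41.5, and the high value came from 1 cell with an *Mmp3* level of 100 or more on a PdgfrbGFP plate. Accordingly the difference between cluster 2 and clusters 1, 5 and 7 was −0.24 ± 1.52 (edgeR, adjusted p = 0.958), and it became −6.37 (adjusted p = 0.0374) without PdgfrbGFP and 0.56 (adjusted p = 0.912) without PdgfraGFP.

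Plate values differed by line in cluster 5, but over plates *Mmp3* did not pass between Acta2GFP and PdgfrbGFP there (−3.33, edgeR, adjusted p = 0.992). In cluster 5, 9 (11.1%), 22 (20.0%), 3 (16.7%) and 2 (18.2%) cells were high in *Mmp3* on the 4 PdgfrbGFP plates, with plate means of 72.6, 121.1, 152.2 and 105.5. On the Acta2GFP plates it was 1 of 36 and 3 of 92 (means 11.7 and 5.62), on a PdgfraGFP plate 4 of 58 (83.9), and on the Cspg4dsRED plate 1 of 13 (134.4). The mean log2 level of the dissociation genes in cluster 5 was 5.39, 8.23, 4.52 and 4.89 on the same PdgfrbGFP plates and 4.55 and 6.69 on the Acta2GFP plates, and the 2 sets overlap. In cluster 1 no such split was seen, with 0.197 to 33.8 over the plates of PdgfrbGFP and 32.7 and 7.29 in Acta2GFP.

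**Figure D3:**
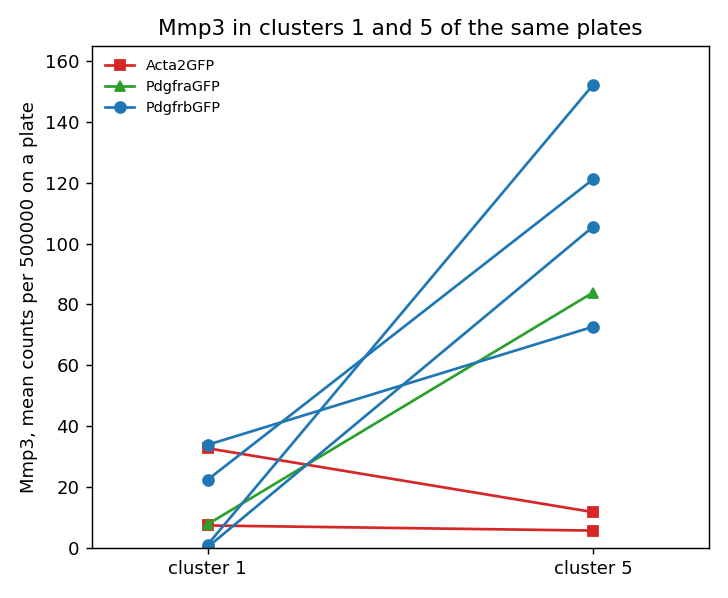
Mean *Mmp3* level (counts per 500000) on each plate with at least 10 cells, in clusters 1 and 5, coloured by reporter line. In cluster 5 the Acta2GFP plates (11.7 and 5.62) lie under all plates of the other lines (72.6 to 152.2), while the test of Acta2GFP against PdgfrbGFP over plates did not pass (edgeR, adjusted p = 0.992).

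In cluster 1, the largest cluster, lines were tested against each other over plates. For Acta2GFP against PdgfrbGFP and for PdgfraGFP against PdgfrbGFP, 0 of the 10 members and 0% of the 15700 genes were called by edgeR in either comparison (2.77% and 6.75% had an unadjusted p under 0.05, and DESeq2 called 0.0946% and 1.17% of the 46517 genes of the table). *Mmp3* differed by 0.43 ± 1.56 between Acta2GFP and PdgfrbGFP (edgeR, adjusted p = 1). *Mmp14* had the lowest unadjusted p among MMP members, with 287.2, 178.99 and 385.4 in Acta2GFP, PdgfraGFP and PdgfrbGFP and a difference of −0.94 ± 0.31 between PdgfraGFP and PdgfrbGFP (edgeR, adjusted p = 0.708).

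Between clusters 7 and 1, both CD34+ fibroblasts, 0 of 10 members were called by edgeR, where 0.333% of the 18924 genes rose and 0.576% fell. An unadjusted edgeR p under 0.05 was found for 3 of the 10 members and for 9.83% of the 18924 genes. The 3 were *Mmp2* (−0.41 ± 0.17, adjusted p = 0.429), *Timp2* (0.59 ± 0.27, adjusted p = 0.482) and *Mmp10* (−5.17 ± 1.70, adjusted p = 0.238), and DESeq2 called 1, *Mmp10* (adjusted p = 0.0155). With plates as samples edgeR called *Timp2* (adjusted p = 0.0214). *Timp3* was at 753, 525 and 599 in cluster 7 and 473.03, 467.8 and 473.4 in cluster 1, without overlap between lines, yet the summed counts gave 0.29 ± 0.57 (adjusted p = 1). Single plates of cluster 1 spread more widely, with 321.7 on a PdgfraGFP plate and 614.6 on a PdgfrbGFP plate. Of the partner genes 1 of 23 was called, *Plat*, encoding tissue plasminogen activator (2.52 ± 0.51, adjusted p = 0.0288), and of the other MMP genes 0 of 9.

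*Mmp19* and *Timp2* were high in cluster 5. *Mmp19* was at 100.9, 78.2, 91.8 and 217.7 in Acta2GFP, PdgfraGFP, PdgfrbGFP and Cspg4dsRED, against 55.1, 42.03 and 54.4 in cluster 1, with the Cspg4dsRED value from 13 cells. *Timp2* was at 533 to 613 in cluster 5 and 511 to 636 in cluster 7, which overlap, and at 335.8 to 457.8 in cluster 1. Comparing clusters 5 and 1 plate by plate, *Mmp2* and *Timp3* were lower and *Timp2* was higher in cluster 5 on 7 of 7 plates with at least 10 cells of each. *Mmp19* was higher on 6 of 7. This contrast was not tested, and how many of all genes keep 1 direction was not counted. The dissociation genes stood at 5.57 to 6.72 in cluster 5 and 3.81 to 5.50 in cluster 1. Endothelial markers summed to 120.5 to 150.1 and 19.3 to 29.8, mural markers to 60.4 to 107.5 and 108.9 to 141.4, and apex markers to 16.3 to 147.7 and 561.3 to 609.1. The part of these lists was not tested.

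Cluster 6, the second fibroblast cluster with low CD34+ markers, was compared with cluster 2. *Mmp2* was lower, with 1208 in Acta2GFP and 1161 in PdgfraGFP (−1.03 ± 0.20, adjusted p = 0.0142), and *Mmp11* was nearly absent at 1.03 and 0.7, the lowest level of any cluster (−4.76 ± 0.97, adjusted p = 0.0175). *Timp3* was present at 342.8 and 335.3 (3.27 ± 0.66, adjusted p = 0.0164). The summed levels of some markers of other cells were also higher in the lines of cluster 6 than of cluster 2, at 489 to 1456 against 101.7 to 316.7 for 5 smooth muscle markers, 199.03 to 211.1 against 14.9 to 34.1 for 5 pericyte markers and 132.9 to 356.4 against 21.7 to 43.2 for the 6 mural markers. Interstitial cell of Cajal markers were lower, at 0.7 to 54.01 against 98.1 to 219.6. Interstitial SMC markers were also lower, at 105.3 to 136.9 against 253.8 to 355.7. The dissociation genes were lower, at 3.95 to 4.25 against 7.33 to 8.28, and the part of any of these lists in the member differences was not tested. *Timp1* was at 18.6 and 43.3 and did not pass (−1.87 ± 0.60, adjusted p = 0.121), but passed with the line as a replicate block (0.0475) and with DESeq2 (0.0321).

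Of the 10 members 1 rose and 2 fell in cluster 6, where 0.576% of the 18924 genes rose and 1.52% fell and the median over all genes was −0.22. Among the 23 tested partner genes *Plau* (−7.01) fell, and *Pcsk6* (3.11) and *Thbs2* (2.39) rose. Among the other MMP genes 1 of 9 fell, *Mmp13* (−8.06). The sums are small, with 10 and 26 cells, and calls were lost when a line was left out, which for Acta2GFP or PdgfraGFP leaves cluster 6 with 1 sum: without Acta2GFP the adjusted p was 0.257 for *Mmp2*, 0.202 for *Mmp11* and 0.378 for *Timp3*, without PdgfraGFP it was 0.0977 for *Mmp2* and 0.057 for *Mmp11*, and without PdgfrbGFP 0.0673 and 0.139. *Mmp19* and *Mmp14* were uneven in cluster 6 (105.96 and 9.3, and 399.5 and 138.7 in Acta2GFP and PdgfraGFP), and *Mmp19* passed against cluster 2 with plates as samples (edgeR, adjusted p = 0.0049), where cluster 6 is 2 plates of PdgfraGFP alone.

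*Timp3* had the highest level per kb of the members in vascular SMC and pericytes, and the third highest in interstitial SMC (42.2), after *Timp2* (78.8) and *Mmp2* (57.1). In counts per 500000 it was at 834 in Acta2GFP, 882 in PdgfrbGFP and 1663 in Cspg4dsRED in vascular SMC, at 985.00 and 2128 in pericytes of PdgfrbGFP and Cspg4dsRED, and at 343.4 in interstitial SMC of Acta2GFP. The Cspg4dsRED line was the highest in both clusters, whose ranges overlap. *Timp2* was at 75.6, 108.3 and 71.6 in vascular SMC of Acta2GFP, PdgfrbGFP and Cspg4dsRED, at 110.4 and 161.98 in pericytes of PdgfrbGFP and Cspg4dsRED, and at 306.9 in interstitial SMC.

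*Mmp2* was lowest in vascular SMC. It was at 51.9, 9.9 and 3.04 in vascular SMC of Acta2GFP, PdgfrbGFP and Cspg4dsRED, at 126.9 and 144.7 in pericytes of PdgfrbGFP and Cspg4dsRED, and at 192.4 in interstitial SMC. Pericytes did not overlap vascular SMC, but with 2 and 3 sums the difference of 3.15 ± 0.82 did not pass (edgeR, adjusted p = 0.148). Among single cells 40 pericytes (28.2%, 20.9 to 36.3), 31 interstitial SMC (55.4%, 41.5 to 68.7) and 4 vascular SMC (2.84%, 0.778 to 7.10) had a level of 100 or more. The fibroblast markers were also higher in pericytes (1059 to 2278) than in vascular SMC (274.8 to 842) and stood at 1828 in interstitial SMC. The dissociation genes stood at 4.17 to 4.42 in pericytes, 6.92 to 7.76 in vascular SMC and 6.37 in interstitial SMC, and the part of either list in the *Mmp2* differences was not tested. *Mmp2* passed between pericytes and vascular SMC with the line as a replicate block (adjusted p = 0.0107), and also without Acta2GFP (0.0394), Cspg4dsRED (0.00286) or PdgfrbGFP (0.0166). Without Cspg4dsRED or PdgfrbGFP the pericytes are 1 sum, and the spread comes from the 2 sums left in vascular SMC, so these values are no support for the difference.

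Between pericytes and vascular SMC 0 of 9 tested members were called by edgeR and 0 by DESeq2, where 0.263% of the 16328 genes rose and 0.404% fell in edgeR. An unadjusted edgeR p under 0.05 was found for 2 members (*Mmp2* and *Mmp11*) and for 10.9% of these genes. *Mmp11* was at 41.5 and 78.01 in pericytes of PdgfrbGFP and Cspg4dsRED and at 10.8 to 17.2 in vascular SMC. Between interstitial and vascular SMC 0 of 9 were called by edgeR and 0 by DESeq2, where 0.398% of the genes rose and 0.643% fell in edgeR and the median over all genes was −0.31. *Mmp2* was closest to the threshold there (3.97 ± 0.93, adjusted p = 0.084). Interstitial SMC had 1 line with at least 10 cells, so each of its main tests, those of partner genes included, rests on 1 sum that is assumed to vary like the others. *Mmp2* passed with sums of at least 3 cells (interstitial sums of 52 and 4 cells). It also passed with plates as samples (40 and 12 cells, both Acta2GFP), and with no filter, still on 1 interstitial sum. The call also appeared without Cspg4dsRED or PdgfrbGFP, but these fits hold 4 sums in 3 groups, with 1 residual degree of freedom, and are no support.

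Of the partner genes, *Cd44*, which encodes a hyaluronan receptor that can dock MMPs at the cell surface, was higher in pericytes (3.13 ± 0.51, adjusted p = 0.0197) and in interstitial SMC (4.39 ± 0.59, adjusted p = 0.00469) than in vascular SMC. *Plau* was higher (6.27) and *Serpine2* lower (−6.02) in the 1 sum of interstitial SMC than in vascular SMC, the other 20 of 23 tested were not called there, and of the other MMP genes 0 of 7 were called in either comparison.

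The balance of the member transcripts was summarised as the sum of the 4 TIMP levels per kb divided by the sum of the 6 MMP levels per kb. It was 0.325 in cluster 2 (range 0.318 to 0.333, n = 3 lines), 0.409 in cluster 6 (0.347 to 0.470, n = 2), 0.5256 in cluster 1 (0.436 to 0.587, n = 3), 0.638 in cluster 5 (0.578 to 0.747, n = 4) and 0.999 in cluster 7 (0.908 to 1.15, n = 3). In cluster 8 it was 1.19, in pericytes 2.85 (2.25 to 3.45, n = 2) and in vascular SMC 9.94 (3.75 to 17.7, n = 3). Cluster 2 lay under and cluster 7 above every line of the other fibroblast clusters, clusters 1 and 5 overlapped although cluster 5 was higher in each of the 3 lines they share (0.747 against 0.554 in Acta2GFP, 0.634 against 0.587 in PdgfraGFP and 0.592 against 0.436 in PdgfrbGFP), and every line of both vascular mural clusters lay above every fibroblast line. These are ratios of RNA levels and were not tested.

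The inhibitor that made up the TIMP sum also changed. *Timp3* gave 0.303% to 3.40% of it in cluster 2 and 77.5% to 91.6% in vascular SMC. Per kb, *Timp1* (190.9) led the inhibitors in cluster 2, ahead of *Timp2* (68.5) and *Timp3* (3.5).

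**Figure D4:**
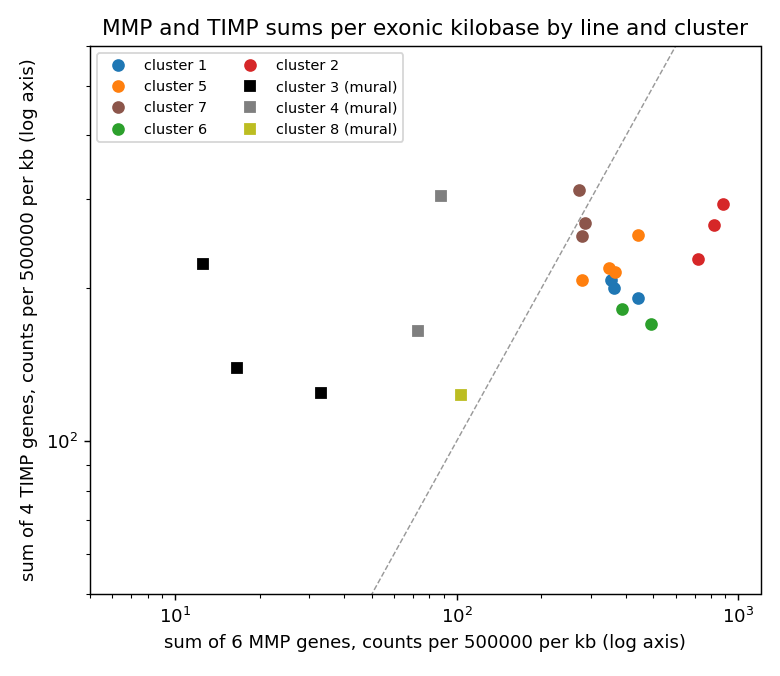
Summed TIMP level against summed MMP level (counts per 500000 per kb of exon) in each cluster of each line, with a dashed line where both sums are equal. Cluster 2 lies farthest below the line of equality, cluster 7 close to it, and clusters 3 and 4 above it. The sums hold the members only, and MMP genes outside the set are left out.

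Likeness was measured over the 21 sums of a cluster and line, which share lines, plates and the fibroblast-mural divide, as Pearson's r of log2(level + 1) among 8258 genes (8259 for *Mmp10*), and is given as a description. *Mmp2* was closest to *Ptges* (r = 0.965), which encodes a prostaglandin E synthase, *Nav1* (0.964) and *Col6a2* (0.960). *Mmp10* was closest to *C5ar1* (0.951), *Tbxas1* (0.948) and *Rab3b* (0.940), although by rank these were weaker (Spearman's rho 0.545, 0.785 and 0.581). *Timp1* was closest to *Pdgfra* (0.929), *P4hb* (0.899) and *Sec31a* (0.894). *Mmp3* had no such close partner, its nearest being *Gpnmb* (0.804), *Slc8b1* (0.770) and *Gdf10* (0.746).

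*Mmp14* was closest to *Hexa* (0.922), *Col1a1* (0.922), the main fibrillar collagen gene, and *Pcolce* (0.918), and *Mmp19* to *Pld3* (0.915), *Hexa* (0.909) and *Mmp14* itself (0.893). *Timp2* was closest to *Gm2a* (0.940), *Stambpl1* (0.926) and *Efs* (0.921), and *Mmp11* to *Enpp5* (0.833), *Wrb* (0.828) and *Rap2a* (0.824). *Timp3* was closest to *Syn3* (0.993), the synapsin gene on its opposite strand, whose counts cannot be told apart from those of *Timp3* in their shared exons, followed by *Calcrl* (0.909) and *Cryab* (0.907).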

How the data were processed

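Counts of 1646 colon cells, sequenced with single 50-base reads, were used. The authors trimmed the reads, ran TopHat2 against GRCm38, then samtools in a step described as doublet removal, and obtained raw counts per gene from featureCounts, which they deposited. Whether the counting used strand is not given in the sources used here. The authors had also removed cells with endothelial or immune signatures. No gene of at least 200 exonic bases (39619 genes) had more than 2 counts per exonic base in any cell (highest 1.96), so high levels of short genes such as *Timp1* (at most 0.858) may be compressed, which was not tested. The 92 ERCC rows (1.36% of counts) were left out. Gene counts per cell ranged from 47598 to 1494292 (median 248628).

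The members and lists were chosen with earlier results of these data known. Line, plate and cluster were taken from the labels. Counts were summed per line with at least 10 cells (plates for lines in cluster 1), normalised (TMM), passed through filterByExpr and fitted in edgeR 4.0.16 (glmQLFit, glmQLFTest, R 4.3.3) at an adjusted p of 0.05. The standard error is the log2 fold change over the square root of F. All 10 members were named. Of the partner and other MMP lists, at most the 4 genes with the largest called change of at least 1 (log2) were named per comparison (1 gene is not reported here), and for likeness the 3 genes with the highest r among those with a mean level of at least 10. Alternatives were DESeq2 1.42.0, no filter, sums of at least 3 cells, the line as a block, plates as samples, each line left out, means over all cells, mitochondrially encoded genes left out of the total, and cells thinned to 50000 counts (11 shallower cells left out). Intervals (95%, Clopper-Pearson) take cells as independent draws and cover only the sampling of cells. Cells share plates, lines and mice, so the intervals do not measure the spread between these. Promoter windows came from RefSeq (GRCm38.p6), positions and names from the GENCODE vM21 annotation of GRCm38.

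Lines pair the sums of 2 classes through the plates they share in the labels. Deviations of paired sums from their class means correlated at 0.0759 to 0.167 (3 pairs, fibroblasts and mural cells), 0.0455 to 0.126 (3 pairs, cluster 2 and clusters 1, 5 and 7), 0.00877 to 0.177 (26 pairs, fibroblast clusters) and 0.149 to 0.169 (2 pairs, mural clusters).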

Additional observations from a re-analysis of the deposited data

Results flagged for a closer look

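Of 40 groups of 4 to 10 values checked, 6 held a value far from the others, where chance gives about 1 in 20. In cluster 5, *Mmp11* was lowest in Acta2GFP (42.7 counts per 500000, against 53.6 to 55.4 in the other lines), *Mmp14* was highest in PdgfrbGFP (399.2, against 257.6 to 275.6) and *Mmp19* was highest in Cspg4dsRED (217.7, against 78.2 to 100.9). *Mmp19* was also highest in Cspg4dsRED over all fibroblasts (146.0003, against 68.4 to 74.4), which holds the same 13 cells among its 28. Among PdgfrbGFP plates, *Mmp10* in cluster 1 was highest on 1 plate (7.88, against 0 to 0.19) and *Timp1* in cluster 5 was lowest on another (14.3, against 34.8 to 38.7).

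The *Mmp3* level changed in opposite directions between clusters 1 and 5 in 2 lines. Cluster 5 minus cluster 1 was below 0 on both Acta2GFP plates (mean −11.3 counts per 500000; −21.0 and −1.67) and above 0 on all 4 PdgfrbGFP plates (mean 98.5; 38.8 to 151.1). The 1 PdgfraGFP plate with both clusters gave 76.2. The difference between the lines was not tested, and line and dissociation with elastase cannot be told apart.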

How the results depend on the processing

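Of 13 member differences that passed the test, 2 (*Mmp2* between fibroblasts and mural cells and between cluster 2 and clusters 1, 5 and 7) passed under every alternative run. Over all alternatives of these 13, 93 values kept their direction and call, 23 lost the call and 0 reversed. The causes were not tested. Leaving out each line, *Mmp3* in cluster 2 ranged from −6.37 to 0.56 and *Mmp19* in cluster 6 against cluster 2 from −3.18 to 0.074. *Mmp3* of Acta2GFP against PdgfrbGFP was −3.33 (adjusted p = 0.992) in cluster 5 in place of cluster 1, and ranged from −1.86 to 1.25 when each plate was left out.

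The genes called, as a percent of the 46517 genes of the table, moved as follows. For fibroblasts against mural cells (2.71%) it was 6.44% with DESeq2, 1.27% with the replicate block and 5.41% with plates as samples. For cluster 2 (2.48%) it was 5.78% with DESeq2 and 3.94% with plates. For cluster 7 against 1 (0.37%) it was 1.69% with DESeq2, 0.593% with the replicate block and 1.21% with plates, and for cluster 6 against 2 (0.853%) it was 4.88% with DESeq2, 0.542% with sums of at least 3 cells and 1.64% with plates. For pericytes (0.234%) it was 1.02% with no filter, 2.03% with DESeq2, 0.363% with the replicate block and 0.684% with plates, and for interstitial SMC (0.365%) 1.02% with no filter, 1.91% with DESeq2 and 1.09% with plates. For the lines in cluster 1 (0%) it was 0.0107% and 0.0236% with no filter and 0.0946% and 1.17% with DESeq2. Members called moved from 0 to 1 for cluster 7 (DESeq2, plates), to 1 for pericytes (no filter, replicate block) and for interstitial SMC to 2 (no filter) or 1 (at least 3 cells, plates). The replicate block changed no member's call beyond those given with the comparisons.

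Leaving out each line, the members and genes called ranged from 2 to 5 and 0.617% to 2.44% for fibroblasts against mural cells, 1 to 4 and 0.413% to 2.71% for cluster 2, 0 to 0 and 0.0322% to 0.434% for cluster 7, 0 to 3 and 0.0537% to 1.4% for cluster 6, 1 to 1 and 0.0946% to 0.896% for pericytes, and 2 to 2 and 0.815% to 1.55% for interstitial SMC, where the last 2 compare an arm of 1 sum in most fits and say nothing about stability. Leaving out plates in cluster 1 gave 0 members and 0% to 0% of genes (Acta2GFP) or 0% to 0.0107% (PdgfraGFP).

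A mean over all cells kept 66 of 80 levels within 1 SD of the mean over lines, and leaving mitochondrially encoded genes out of the total kept 68. Thinning to 50000 counts left 28 of 80 shares of cells with a count inside their interval, so such shares depend on depth.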

Other observations

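*Mmp3* and *Mmp10* lie in a cluster of 10 MMP genes on chromosome 9. *Mmp13*, at chr9:7272514-7283331 (GRCm38, plus strand), encodes a collagenase, was at 26.3 to 46.2 counts per 500000 over the lines of cluster 2 and reached 100 in 22 cells. In cluster 2, 13 cells were that high in *Mmp10*, 22 in *Mmp13* and 3 in both. The number expected if the 2 genes were unrelated was not computed, so the 3 cells do not show joint use. *Mmp1a*, *Mmp1b*, *Mmp7* and *Mmp20* had 0 counts in all 1646 cells. Of the MMP genes outside the set, *Mmp23* had the highest mean, 173.2 ± 41.7 (SD, n = 3 lines) in cluster 7.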
